A study of Homo sapiens with 17 samples.

Results

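CD55, FCGR2A and DPP4 are 3 genes for proteins of the cell surface that are best known from immunology, and each was lower in PC3 cells after at least 1 of the 2 shRNAs against the transcription factor ETV4. They were taken by symbol from the identifier column of the 4 comparison tables deposited for this series, 3 of the 1400 genes listed in at least 1 table. They were chosen by their log2 ratios in these same tables, so those values are a description and are not tested again here. PC3 is an established human prostate cancer cell line. The knockdown groups were PC3 cells infected with lentivirus carrying MED25 shRNA A or MED25 shRNA B, and PC3 cells infected with retrovirus carrying ETV4 shRNA A or ETV4 shRNA B, with 3 libraries for each shRNA. The references were PC3 cells infected with lentivirus carrying a luciferase shRNA (3 libraries) and PC3 cells infected with retrovirus carrying a control shRNA (2 libraries). The series text describes the control as an empty vector, which differs from the sample labels. All 17 libraries are from early passage cells harvested 7 days after infection, and the labels do not say whether replicates were separate cultures.

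CD55, also called decay-accelerating factor, is held in the outer leaflet of the membrane by a lipid anchor and dissociates the C3 and C5 convertases, the enzyme complexes that amplify complement on a cell. FCGR2A encodes the low-affinity IgG receptor CD32A, which binds antibody-coated particles and signals through an activating motif in its own tail, and which is best known on macrophages, neutrophils and platelets. DPP4, also called CD26, is a membrane-anchored serine peptidase that removes N-terminal dipeptides from incretins, neuropeptides and chemokines, and is found on T cells and on many epithelia, prostate included. ETV4 is an ETS-family factor that binds DNA around a GGAA core, and MED25 is a Mediator subunit through which ETV4 and related activators can contact the transcription machinery.

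The promoters of the 3 genes are shown because ETV4 binds DNA directly, and they show which ETS core letters lie at the annotated starts. Each is 300 bases from RefSeq on GRCh38.p14, 250 before and 50 after the annotated start, read 5′ to 3′ on the strand of the gene. This build is not the hg19 that the authors aligned to. Capitals mark the ETS core GGAA or its reverse complement TTCC, and the cAMP-response motif TGACG or its reverse complement CGTCA. CD55 is at chr1:207321428-207321727 on the plus strand, FCGR2A at chr1:161505207-161505506 on the plus strand, and DPP4 at chr2:162074166-162074465 on the minus strand.
CD55: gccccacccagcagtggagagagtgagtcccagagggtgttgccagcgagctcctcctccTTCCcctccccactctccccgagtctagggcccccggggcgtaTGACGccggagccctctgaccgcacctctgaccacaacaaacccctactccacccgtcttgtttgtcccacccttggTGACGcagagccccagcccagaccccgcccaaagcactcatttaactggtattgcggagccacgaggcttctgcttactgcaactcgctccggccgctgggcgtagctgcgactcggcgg
FCGR2A: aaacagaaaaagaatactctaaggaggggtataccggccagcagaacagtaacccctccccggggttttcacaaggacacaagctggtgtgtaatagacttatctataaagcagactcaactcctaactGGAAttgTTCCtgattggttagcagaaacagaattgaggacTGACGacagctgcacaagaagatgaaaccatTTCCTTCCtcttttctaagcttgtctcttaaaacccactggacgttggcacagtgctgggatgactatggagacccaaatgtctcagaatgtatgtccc
DPP4: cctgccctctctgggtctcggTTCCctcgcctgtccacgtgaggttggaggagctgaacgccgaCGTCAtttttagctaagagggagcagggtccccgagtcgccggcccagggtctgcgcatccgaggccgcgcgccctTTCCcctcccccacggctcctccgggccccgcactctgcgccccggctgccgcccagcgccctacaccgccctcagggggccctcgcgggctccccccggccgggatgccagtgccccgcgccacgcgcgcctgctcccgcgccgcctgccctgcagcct

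The 3 windows differed in composition and in the motif letters they held. GC content was 65.0% for CD55, 45.0% for FCGR2A and 75.0% for DPP4, beside a median of 58.67% over 35116 promoters of the same table. CD55 held 1 match to GGAA on either strand, FCGR2A held 4 and DPP4 held 2, against a median of 3 per promoter. As 95.45% of all promoters held at least 1 GGAA, these letters do not set the genes apart. In FCGR2A, a pair of the matches lies side by side, starting 49 and 45 bases before the annotated start. The longer ETS form CGGAAG was in none of the 3 windows and in 19.46% of all promoters. The AP-1 site TGANTCA was likewise in none of the 3 and in 7.709% of all promoters. TGACG was found on either strand at 2 places in CD55 and at 1 place each in FCGR2A and DPP4, and 24.55% of all promoters held it. All motifs were searched on both strands, and no GGAA match shared a base with a TGACG match. Each match describes letters in the window, not a bound site, and which start PC3 cells use is not known from these data.

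Each listed gene comes with a log2 ratio and with the authors' adjusted p, whose scale is not stated and which is treated here as a score. Values of single libraries were not analysed here, so nothing below carries an error and no spread between replicates can be given. Ratios are given as knockdown over control, a direction read from the order of library numbers in the headers and from the sign of MED25 and ETV4 themselves, and read this way every listed gene was lower. The shRNAs of one target share their control libraries, so their values are set side by side without a test. In each of the 4 tables the smallest decrease listed was about −0.59 and the smallest score just above 20. Raised genes and smaller decreases are thus absent from these lists, and how many genes rose cannot be read from them. A gene that is not listed cannot be called unchanged. In bulk RNA, fewer cells that express a gene and less RNA per cell cannot be told apart.

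CD55 was listed with 3 of the 4 shRNAs, and its decrease was larger after both ETV4 shRNAs than after MED25 shRNA A. In the authors' deposited tables CD55 (ENSG00000196352, chromosome 1, protein coding) was at −1.51 on the log2 scale after ETV4 shRNA A, 35.1% of the retroviral control. After ETV4 shRNA B the authors' deposited table put CD55 at −1.07, 47.7% of the same control. After MED25 shRNA A the authors' deposited table put it at −0.69, 61.9% of the lentiviral control. CD55 was not listed after MED25 shRNA B. Both ETV4 values pass a 2-fold decrease and the MED25 value does not. The ETV4 and MED25 comparisons also differ in virus and in control libraries. A difference between targets cannot be told apart from these, and the order was not tested. Among all listed genes, a decrease of at least 2-fold was reached by 23.2% after ETV4 shRNA A, 20.4% after ETV4 shRNA B, 24.0% after MED25 shRNA A and 20.1% after MED25 shRNA B.

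The score of CD55 was second to that of the targeted gene after both ETV4 shRNAs. In the authors' deposited table for ETV4 shRNA A, CD55 had a score of 2011 and ETV4 itself a score of 2335, out of 495 listed genes. In the authors' deposited table for ETV4 shRNA B, CD55 had a score of 1022 and ETV4 a score of 3039, out of 98 genes. The median scores of these tables were 63.6 and 66.7. By size of decrease CD55 was number 25 of 495 after ETV4 shRNA A and number 19 of 98 after ETV4 shRNA B, so its place by score was higher than its place by fold. After MED25 shRNA A, CD55 stood in the weaker part of the table on both measures, at number 539 of 786 by decrease and number 572 by score. Its score there was 42.2 per the authors' deposited table, below that table's median of 67.6.

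FCGR2A had the largest decrease of the 3 genes, after ETV4 shRNA A, and was listed with neither MED25 shRNA. The authors' deposited table for ETV4 shRNA A put FCGR2A (ENSG00000143226, chromosome 1, protein coding) at −2.29, 20.5% of the retroviral control. It was number 3 of 495 by decrease and number 16 by score, with a score of 432. After ETV4 shRNA B the authors' deposited table put FCGR2A at −0.72, 60.9% of the same control, with a score of 44.0. There it was number 58 of 98 by decrease and number 65 by score, and its decrease was smaller than that table's median of −0.77.

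The gap between the ETV4 shRNAs was wider for FCGR2A than for any other of the 57 genes that both of them listed. Its ratio was lower after shRNA A than after shRNA B by 2.97-fold, a difference of −1.57 on the log2 scale. The median difference over the 57 genes was −0.22, and 41 of the 57 were lower after shRNA A. For CD55 the difference was −0.44, number 17 in the same order. ETV4 itself went the other way, at −1.94 after shRNA A and −2.67 after shRNA B, or 26.1% and 15.8% of control, per the authors' deposited tables. FCGR2A and CD55 were therefore lower with the shRNA that left more ETV4 transcript. These gaps were not tested, as the tables hold no error per gene.

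DPP4 was listed after shRNA A of each target and after shRNA B of neither, and both of its decreases were under 2-fold. After MED25 shRNA A the authors' deposited table put DPP4 (ENSG00000197635, chromosome 2, protein coding) at −0.64, 64.2% of the lentiviral control. After ETV4 shRNA A the authors' deposited table put it at −0.62, 65.1% of the retroviral control. These comparisons have no control library in common. Both decreases lie close to the smallest decrease listed, −0.59 in each of these tables. By decrease DPP4 was number 632 of 786 after MED25 shRNA A and number 445 of 495 after ETV4 shRNA A. By score it was number 51 after MED25 shRNA A and number 48 after ETV4 shRNA A, with scores of 212 and 227 per the authors' deposited tables. DPP4 thus joined a small fold change to a high score in both tables, while CD55 after MED25 shRNA A joined a similar fold change to a low score.

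**Figure D1:**
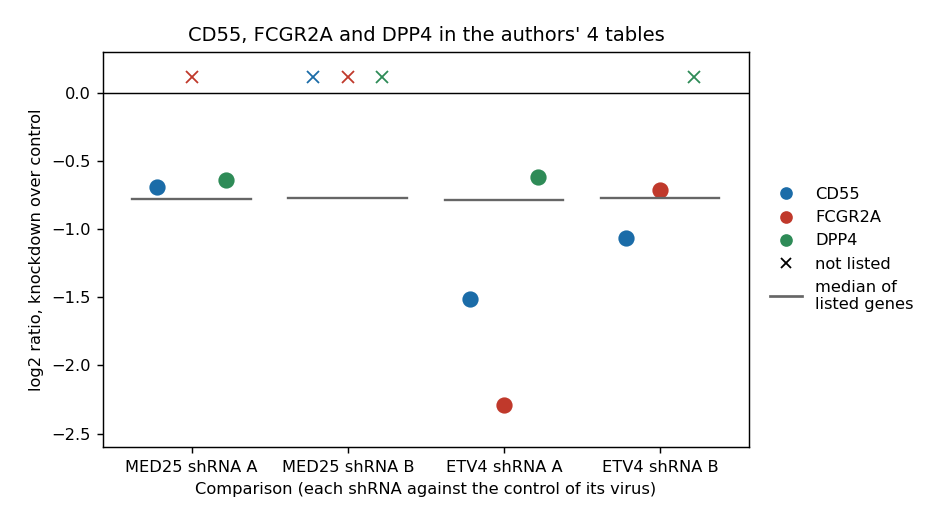
Log2 ratio of knockdown over control for CD55, FCGR2A and DPP4 with each shRNA, from the authors' deposited tables. Circles are listed values, crosses above 0 mark genes not listed and have no value, and grey lines are the median of all listed genes; CD55 lies below the median after both ETV4 shRNAs and FCGR2A far below it after ETV4 shRNA A, at −2.29.

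**Figure D2:**
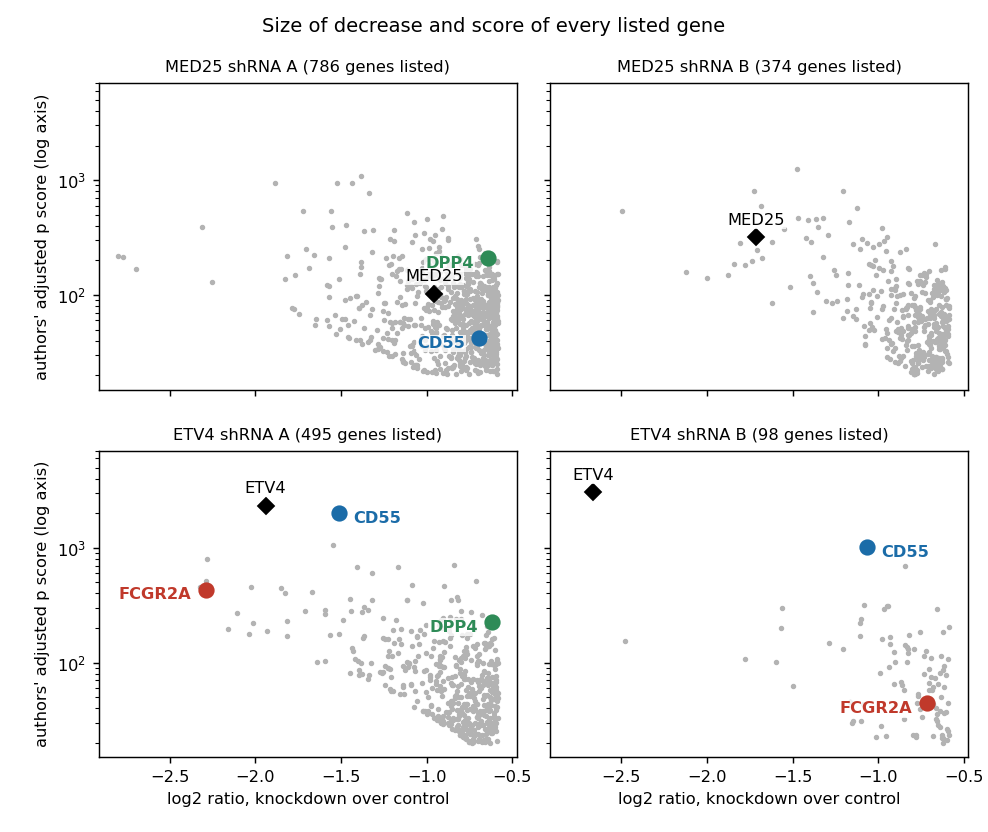
Log2 ratio (horizontal axis) and the authors' adjusted p score (vertical axis, log scale) of every listed gene, 1 panel for each shRNA, with the targeted gene as a black diamond. CD55 stands directly under ETV4 by score in both ETV4 panels, and DPP4 combines a small decrease with scores of 212 and 227 in the panels that list it.

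The order of the genes by decrease was FCGR2A, CD55, DPP4 after ETV4 shRNA A, while after ETV4 shRNA B CD55 was lower than FCGR2A. After MED25 shRNA A, CD55 at −0.69 and DPP4 at −0.64 were close to each other, and their order cannot be read without an error. MED25 shRNA B listed none of the 3 among its 374 genes. MED25 transcript was at −0.96 after MED25 shRNA A and −1.71 after MED25 shRNA B, or 51.6% and 30.5% of control, per the authors' deposited tables. CD55 and DPP4 were thus listed with the MED25 shRNA that left more MED25 transcript. That shRNA also had the longer list, 786 genes, of which 153 were listed with MED25 shRNA B too. Being listed with MED25 shRNA A alone is therefore not particular to CD55 and DPP4.

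In the ranking by decrease, each gene's direct neighbours were as follows, all values being log2 ratios from the authors' deposited tables. FCGR2A stood between the potassium channel gene KCNK15 (−2.29) and the keratin gene KRT75 (−2.29) after ETV4 shRNA A. After ETV4 shRNA B it stood between EPB41L3 (−0.72), a membrane-cytoskeleton protein, and the antisense transcript RP11-736K20.5 (−0.70). CD55 stood between ABCA13 (−1.51) and CCDC141 (−1.49) after ETV4 shRNA A. After ETV4 shRNA B, CD55 stood between aldehyde oxidase AOX1 (−1.08) and the antisense transcript RP11-887P2.1 (−1.02). After MED25 shRNA A, CD55 stood between the mitochondrial valyl-tRNA synthetase VARS2 (−0.69) and TUBGCP3 (−0.69), a gamma-tubulin complex protein. DPP4 stood between NHSL1 (−0.64) and C15orf17 (−0.64) after MED25 shRNA A. After ETV4 shRNA A it stood between the prostaglandin receptor PTGER4 (−0.62) and the histone gene HIST1H2BM (−0.62).

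Likeness of pattern was measured as the Euclidean distance of log2 ratios among genes listed with exactly the same shRNAs. CD55 shared its 3 comparisons with 9 other genes. The nearest was CXADR, the coxsackievirus and adenovirus receptor, at a distance of 0.326, with −0.83 for MED25 shRNA A, −1.71 for ETV4 shRNA A and −0.85 for ETV4 shRNA B per the authors' deposited tables. SHISA3 followed at 0.663 and the antisense transcript RP11-736K20.5 at 0.692.

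FCGR2A shared its pair of comparisons with 26 other genes. The nearest, at a distance of 0.0694, was RP11-59D5__B.2 (ENSG00000236345), an antisense transcript on chromosome 6, with −2.32 for ETV4 shRNA A and −0.77 for ETV4 shRNA B per the authors' deposited tables. The phospholipase D gene PLD1 followed at 0.265 and the intestinal keratin gene KRT20 at 0.404. RP11-59D5__B.2 and PLD1 were, with KCNK15, those whose gap between the ETV4 shRNAs came closest to that of FCGR2A among the 57 shared genes. For RP11-59D5__B.2 and PLD1 this follows from the distance, which uses the same ratios, and is not a further likeness. DPP4 shared its comparisons with 76 other genes. The nearest were UHRF1BP1 at 0.0368, the ciliary transport gene WDR35 at 0.0513 and the histone gene HIST1H2BJ at 0.0536.

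**Figure D3:**
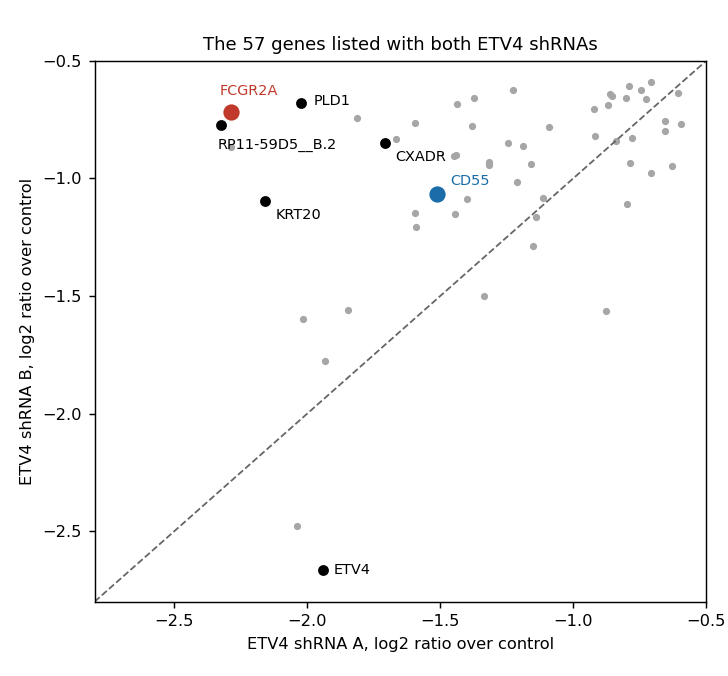
Log2 ratios of the 57 genes listed after both ETV4 shRNAs, shRNA A on the horizontal and shRNA B on the vertical axis, from the authors' deposited tables; both share their retroviral control libraries, and the dashed line marks equal values. FCGR2A lies farthest above the line, at −2.29 and −0.72, while CD55 lies nearer to it and ETV4 below it.

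Among genes around each of the 3 on the chromosome, the 10 on either side in GENCODE release 29 order were looked up. Of all genes of that annotation, 2.30% were listed with at least 1 of the 4 shRNAs, and of its protein-coding genes 6.14%. These shares describe the background and were not compared by a test with the counts of neighbours, which are small. For FCGR2A, 3 of the 20 were listed, all from the repeated block that holds the Fc gamma receptor genes, and 1 of its 7 protein-coding neighbours was among them. FCGR2C, a related receptor gene annotated as a polymorphic pseudogene, was at −0.76 after ETV4 shRNA A per the authors' deposited table, with a score of 20.6. The heat shock gene HSPA6, next to FCGR2A, was at −1.66 after MED25 shRNA A and −1.81 after MED25 shRNA B per the authors' deposited tables, and was not listed with either ETV4 shRNA. Its copy HSPA7, an unprocessed pseudogene beside FCGR2C, was at −1.0 after ETV4 shRNA A per the authors' deposited table.

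FCGR2A and FCGR2C share part of their sequence, so their values are uncertain where counting could split reads between them. Of the 2471 different 50-base words in the protein-coding transcripts of FCGR2A, 25.01% also occur in a transcript of another gene, and 22.02% in FCGR2C. With 100-base words, 12.1% are shared with another gene and 7.81% with FCGR2C. The noncoding gene AL590385.2 overlaps FCGR2A on the same strand and was not listed. For CD55, 0.370% of 50-base words are shared, and for DPP4 0.739%. No 100-base word of CD55 or DPP4 is shared with another gene. The read length and the treatment of reads with several positions are not stated in the labels or files used here.

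For DPP4, 3 of the 20 neighbours were listed, 2 of them among its 7 protein-coding neighbours. Of the listed protein-coding ones the nearest was the bicarbonate transporter gene SLC4A10, on the opposite strand and 7 places away. It was at −1.75 after MED25 shRNA A and −0.89 after ETV4 shRNA A per the authors' deposited tables, the same pair of shRNAs that listed DPP4. The protein-coding genes GCG, 5 places away, and FAP, 7 places away, were not listed. The pseudogene AHCTF1P1, named AC009487.6 in the authors' deposited table, was at −0.86 after MED25 shRNA A. IFIH1, the cytosolic sensor of double-stranded RNA, was at −0.70 after ETV4 shRNA A per the authors' deposited table. An antisense gene, AC008063.1, overlaps DPP4 and was not listed. Reads from the overlap cannot be assigned to one of the pair if counting ignored strand. For CD55, 1 of the 20 neighbours was listed, 1 of 8 protein-coding ones, the phosphofructokinase regulator gene PFKFB2, at −0.85 after MED25 shRNA A per the authors' deposited table. The complement genes beside CD55, among them C4BPA, C4BPB, CR2 and CR1, were not listed with any shRNA.

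The lists on complement, Fc receptors and peptidases had 0 to 2 members in each table, too few for their shares to be read against the background. As a background, 3.44% of the 19951 protein-coding genes annotated in GENCODE release 29 were listed after MED25 shRNA A, 1.61% after MED25 shRNA B, 2.17% after ETV4 shRNA A and 0.456% after ETV4 shRNA B. These shares are of annotated genes, as how many genes entered the authors' tests is not stated in the labels or files used here. Of 26 complement regulators and receptors, CD55 was the only one listed with any shRNA, beside 6.14% of all annotated protein-coding genes. CD46 and CD59, the other membrane regulators, were thus absent from all 4 tables. Of 26 complement components, 1 was listed after ETV4 shRNA A and 1 after MED25 shRNA A. After ETV4 shRNA A it was C5, the precursor of the anaphylatoxin and of the lytic complex, at −1.41 on the log2 scale with a score of 683 per the authors' deposited table. The soluble lectin gene COLEC11 was at −1.02 after MED25 shRNA A, with a score of 21.7, close to 20.3, the smallest score in the authors' deposited table.

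Of 24 Fc receptors and relatives, 2 were listed after ETV4 shRNA A, FCGR2A and FCGR2C, and 1 after ETV4 shRNA B, FCGR2A. FCRLB, an intracellular relative of the Fc receptors also on chromosome 1, was the 1 member listed with each MED25 shRNA, at −1.17 after shRNA A and −0.60 after shRNA B per the authors' deposited tables. FCER1G, the shared signalling chain of other Fc receptors, was not listed. Of 20 genes of Fc receptor signalling, 1 was listed after ETV4 shRNA A, the exchange factor VAV3 at −1.26, and 1 after MED25 shRNA A, the adaptor GAB2 at −0.68, per the authors' deposited tables.

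Of the 10 genes of the DPP4 family, 2 were listed after MED25 shRNA A, DPP4 and the cytosolic peptidase DPP9 at −0.62 per the authors' deposited table. After ETV4 shRNA A it was DPP4 alone, and FAP, the closest relative of DPP4, was listed with no shRNA. Of 37 other cell surface peptidases, 1 was listed after ETV4 shRNA A, neprilysin, MME, at −0.67 per the authors' deposited table. After ETV4 shRNA B it was carboxypeptidase M, CPM, at −0.99, and after MED25 shRNA B the metalloprotease ADAM15 at −0.59, per the authors' deposited tables. MED25 shRNA A listed 0 of the 37. Of 23 DPP4 substrates and binding partners, among them CXCL12, NPY and adenosine deaminase (ADA), 0 were listed in any table. Of all annotated protein-coding genes 6.14% were listed with at least 1 shRNA, and 23 genes are too few to be set apart from that share.

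Proteins that share the lipid anchor of CD55 were listed at 6.41% after ETV4 shRNA A (5 of 78 symbols), beside 2.17% of annotated protein-coding genes. They were listed at 5.13% (4 of 78) after MED25 shRNA A, beside 3.44%. With each shRNA B they were listed at 1.28% (1 of 78), beside 0.456% for ETV4 and 1.61% for MED25. Their medians were −0.86, −0.65, −1.07 and −0.60 for ETV4 shRNA A, MED25 shRNA A, ETV4 shRNA B and MED25 shRNA B, beside −0.79, −0.78, −0.77 and −0.77 over all listed genes. After ETV4 shRNA A these were CD55, the adhesion molecule CEACAM6 (−0.99), the pantetheinase VNN1 (−0.86), the NKG2D ligand ULBP1 (−0.78) and the ectonucleotidase NT5E (−0.64) per the authors' deposited table. After MED25 shRNA A they were ULBP1 (−1.48), CD55, the prion protein gene PRNP (−0.61) and CD109 (−0.59) per the authors' deposited table. CD55 was the single one listed after ETV4 shRNA B, and PRNP, at −0.60 per the authors' deposited table, the single one after MED25 shRNA B. CD55, chosen by its values, is thus counted in each share and each median except those of MED25 shRNA B. With each shRNA B the median is the value of a single gene, CD55 for ETV4 and PRNP for MED25. The shares were not compared by a test. The 78 symbols hold MFI2 and MELTF, an older and a newer name of the same gene.

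The list of immune checkpoint and natural killer cell ligands holds 39 symbols, with the nectin genes under both older (PVRL) and newer (NECTIN) symbols. Of the 39, 2 were listed after MED25 shRNA A, beside 3.44% of protein-coding genes, and 2 after ETV4 shRNA A, beside 2.17%. ULBP1 was in both, and the poliovirus receptor PVR was at −1.05 after MED25 shRNA A and the TNF-family ligand CD70 at −0.81 after ETV4 shRNA A per the authors' deposited tables. None of these was listed with either shRNA B. Antigen presentation genes were absent from all tables, with 0 of 22 for MHC class I and 0 of 13 for MHC class II. Of all annotated protein-coding genes 6.14% were listed with at least 1 shRNA, and these lists are too small to be set apart from that share.

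FCGR2A is usually a gene of blood cells, so markers of those cells were looked up beside it. Of 23 myeloid markers, 2 were listed after ETV4 shRNA A, the integrin chain gene ITGB2 at −1.25 and the calcium-binding protein gene S100A9 at −0.64, per the authors' deposited table. The lectin CD33 was listed after MED25 shRNA A at −0.93 per the authors' deposited table. The rest of the 23 myeloid markers, among them PTPRC, CD14, CSF1R and SPI1, were not listed, and 0 of 23 lymphoid markers were. Of all annotated protein-coding genes, 2.17% were listed after ETV4 shRNA A and 6.14% with at least 1 shRNA. The marker lists are too small to be read against these shares. Levels of the markers were not analysed here, and the part of any other cell type in the FCGR2A values was not tested. Of 17 epithelial and prostate markers, HOXB13 was at −0.72 after ETV4 shRNA A and KRT19 at −0.61 after MED25 shRNA B per the authors' deposited tables. The tables hold no levels, so the labelled cell line could not be checked against its markers.

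**Figure D4:**
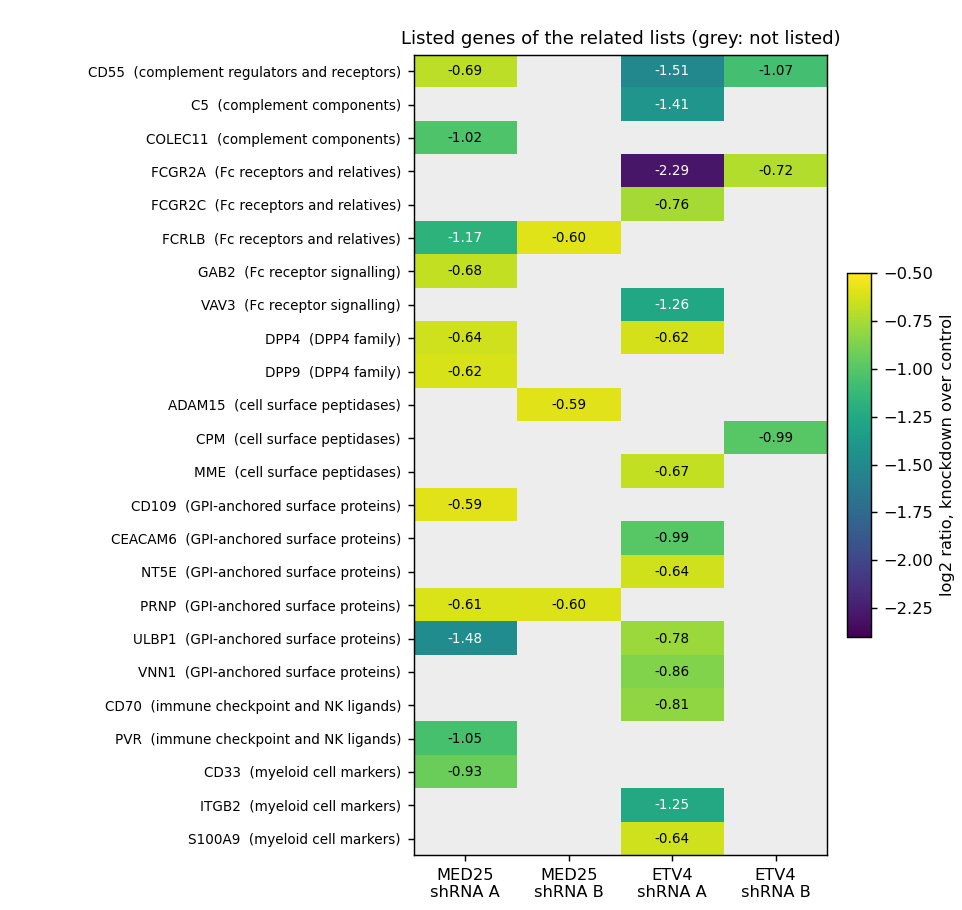
Log2 ratios of knockdown over control for the listed genes reported here from the lists on complement, Fc receptors, peptidases, lipid-anchored proteins, immune ligands and myeloid markers, from the authors' deposited tables; rows are genes, columns are shRNAs, and grey cells are not listed. FCGR2A after ETV4 shRNA A, at −2.29, is the lowest value shown, and CD55 is the one gene listed in 3 columns.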

How the data were processed

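RNA was sequenced from 17 libraries of PC3 cells. The submitters' processing notes name Novoalign 3.08.02 and the hg19 build. How reads were counted, scaled and tested is not stated in these sources, and depth is unknown.

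The values deposited by the authors are, per the file headers, a log2 ratio per gene beside its adjusted p. That adjusted p has no stated scale, starts just above 20 and was treated as a score in the authors' tables. In the headers, the library number common to both tables of 1 target was taken to be its control, and ratios as first over second, which turned the MED25 signs round. The targeted genes' own sign helped to set this reading.

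Genes and the 14 gene lists were chosen with earlier results of these data known. The genes named are CD55, FCGR2A, DPP4, the targets, listed list members, neighbours in rank, and the 3 genes nearest in pattern. Genome neighbours, promoter motifs and CD-numbered genes were added later. One gene of the peptidase list is not reported here. No test was run, as the tables hold no library-level values.

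Identifiers were matched to GENCODE release 29 for type, chromosome and gene order (1350 of 1400 matched). Shared 50-base and 100-base words came from its transcripts, and promoters from RefSeq on GRCh38.p14 (3 of 3 genes matched). The ranking, distance and motif searches were tested on simulated data. Computations used Python 3.11.15, pandas 2.3.3, numpy 2.4.6 and matplotlib 3.10.9.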

Additional observations from a re-analysis of the deposited data

How the results depend on the processing

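Alternatives were a minimum absolute log2 ratio of 1, a minimum score of 50, ranking by score, protein-coding genes alone and another distance. No paired analysis was possible because the deposited tables hold comparisons and no libraries, and leaving out libraries was not run for the same reason. With a minimum log2 ratio of 1, FCGR2A was listed with 1 shRNA and DPP4 with 0, each against 2 before, and CD55 with 2 against 3. With a score of at least 50, FCGR2A was again listed with 1, without ETV4 shRNA B, and CD55 with 2, without MED25 shRNA A. Ranked by score, CD55 stood in the top 0.404% after ETV4 shRNA A and 2.04% after ETV4 shRNA B, against 5.05% and 19.4% by decrease. FCGR2A after ETV4 shRNA A stood in the top 3.23%, against 0.606%, and DPP4 in the top 6.49% after MED25 shRNA A and 9.70% after ETV4 shRNA A, against 80.4% and 89.9%. Ranks among protein-coding genes alone stayed within 1.5 times. Counts of list members in any table, at a minimum log2 ratio of 1, were 1 for Fc receptor signalling (before 2), 0 for the DPP4 family (2), 0 for surface peptidases (3), 2 for lipid-anchored proteins (7), 1 for myeloid markers (3) and 0 for epithelial markers (2). At a score of at least 50 the count was 1 for complement components (2). Counts not named at a setting stayed within 1.5 times, though some fell. Fc receptors and immune ligands each had 2 (before 3) at both settings. At a score of at least 50, lipid-anchored proteins had 5 (7), surface peptidases 2 (3) and myeloid markers 2 (3). By largest absolute difference, 2 of the 3 genes nearest to CD55 and to DPP4, and 3 of 3 for FCGR2A, were the same.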

Other observations

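Of 84 annotated protein-coding genes whose symbol is CD with a number, 7 (8.33%) were listed with at least 1 shRNA, beside 6.14% of all protein-coding genes. Of the 7, CD55 alone was listed with more than 1 shRNA, while 295 of all 1400 listed genes (21.1%) were, so this count does not set the group apart. This group was chosen after its values were seen. CD300LB, an activating receptor of myeloid cells, was at −1.38 after MED25 shRNA A per the authors' deposited table. The sialic acid-binding lectin CD22 was at −0.79 after ETV4 shRNA A, and CD83, a surface protein of mature dendritic cells, at −0.59 after ETV4 shRNA B per the authors' deposited tables. SIGLEC15, a sialic acid-binding lectin known from osteoclasts and myeloid cells, has no CD-numbered symbol and is not among the 7. It was at −1.44 after ETV4 shRNA A and −0.68 after ETV4 shRNA B per the authors' deposited tables. This is the same pair of shRNAs that listed FCGR2A, a pattern that FCGR2A shares with 26 other genes, SIGLEC15 among them.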
